A study of Mus musculus with 2 samples.

Results

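The far contacts of the Ccl2 promoter along mouse chromosome 11 were profiled by 4C-seq, circularised chromosome conformation capture read out by sequencing. The regions described are the ends of DpnII restriction fragments that have 1 copy in the genome and lie more than 2 Mb from the viewpoint on either side. There were 409099 such ends among 424613 unique ends of the chromosome, 96.3% of them. They spanned positions 3002817 to 121843265 of chromosome 11 in mm9, with 267795 ends on the lower side of the viewpoint, reaching 78.8 Mb from it, and 141304 on the higher side, reaching 39.995 Mb. The viewpoint was set at position 81848193, the middle of the fragment with the highest read count at an end. Distances are measured from it, and lower and higher refer to mm9 coordinates.

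The material was formaldehyde-fixed chromatin of primary bone marrow-derived macrophages of the C57BL/6 strain, whose sample titles carry the tag UT, taken here as untreated. Marrow of C57B6/Jhsd mice was differentiated in medium with an addition conditioned by L929 cells, a fibroblast line that secretes the macrophage growth factor CSF1. The same labels describe another library from such cells with a viewpoint at the start site of Jun on chromosome 4, which is given here only for comparison. There was 1 library per viewpoint, and the number of mice behind each is not stated in the sources used here. Samples were therefore not tested against each other, and there are no p-values. Intervals of shares are exact (Clopper-Pearson) 95% binomial intervals. They cover counting error within 1 library, and ends that lie close together are not independent of each other. The template was cut with DpnII and, after a first ligation, with a second cutter written Csp61, both 4 bp cutters; parallel PCRs were pooled, and the protocol mentions no molecular identifiers, so each PCR copy of a ligation product adds a read. The Ccl2 library held 901507 reads on unique ends at least 5 kb from the viewpoint and the Jun library 1098887.

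As background, Ccl2 encodes a CC chemokine that draws monocytes and other myeloid cells to inflamed tissue, and macrophages are among its main producers. In 4C-seq, DNA that was close to the viewpoint in the nucleus is ligated to it and recovered by inverse PCR. Signal is dense near the viewpoint and thins out with distance. Contacts over many megabases on the same chromosome are known to gather in patches, since stretches of active, gene-rich chromatin tend to meet other such stretches and inactive stretches tend to meet each other. Mouse chromosomes have their centromere at one tip, so the lowest coordinates of chromosome 11 lie next to it.

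Far contacts of Ccl2 were sparse per end but numerous in all. Of the 409099 far ends, 6016 had a rounded count of 1 or more reads, termed covered here, which is 1.47% (95% interval 1.43 to 1.51%). These were 73.9% of the 8145 covered unique ends of the chromosome outside 5 kb. They carried 411175 reads, 45.6% of the reads at least 5 kb from the viewpoint (45.5 to 45.7%) and 32.9% of all reads on unique ends of chromosome 11. For Jun, 5620 of 483533 far ends of chromosome 4 were covered, 1.16% (1.13 to 1.19%), with 229986 reads, 20.9% of those at least 5 kb away. The far share of ends was thus higher for Ccl2 than for Jun by more than the counting intervals, in a comparison of 2 libraries on 2 chromosomes. The far ranges also differ in length, and Ccl2 was not higher at every distance. It had 1.48% against 1.77% for Jun from 3 to 5 Mb and 2.19% against 2.25% from 5 to 8 Mb. From 32 to 50 Mb the shares were 1.16 and 1.21%. In the other distance classes used below Ccl2 was higher.

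At the 2 Mb boundary itself the share went down on the lower side and up on the higher side. On the lower side 31 of 708 ends were covered from 1.8 to 2.0 Mb, 4.38% (2.99 to 6.16%), and 14 of 699 from 2.0 to 2.2 Mb, 2.00% (1.10 to 3.34%). On the higher side the shares were 2.33% (1.38 to 3.65%) just inside the boundary and 3.84% (2.58 to 5.46%) just outside it. These neighbouring shares had overlapping intervals on both sides. Farther from the boundary, inward and outward, the lower side had 4.75% from 1.6 to 1.8 Mb (3.29 to 6.60%) and 1.52% from 2.2 to 2.4 Mb (0.788 to 2.64%). On the higher side these shares were 5.71% (4.21 to 7.55%) and 2.67% (1.59 to 4.19%). The intervals of these outer windows did not overlap on either side, so the share fell across the boundary region on both.

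Beyond 2 Mb, the covered share of Ccl2 hardly followed distance up to 32 Mb, and the sides took different courses. On the lower side it was 1.68% from 2 to 3 Mb (1.28 to 2.16%) and only 0.874% from 3 to 5 Mb (0.678 to 1.11%). It was then 1.79% from 5 to 8 Mb (1.55 to 2.05%) and 1.93% from 8 to 13 Mb (1.73 to 2.14%). The highest class of the lower side lay at 13 to 20 Mb, where 646 of 27107 ends were covered, 2.38% (2.2 to 2.57%). In this library, chromatin at 13 to 20 Mb on this side was therefore ligated to the viewpoint more often per end than chromatin at 3 to 5 Mb. The counting intervals were far apart. Beyond it the share was 1.88% from 20 to 32 Mb (1.76 to 2.02%), 1.34% from 32 to 50 Mb (1.25 to 1.43%) and 1.06% from 50 to 80 Mb (0.998 to 1.13%).

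The higher side started at a higher level and stepped down. Its share was 2.85% from 2 to 3 Mb (2.34 to 3.44%), 2.13% from 3 to 5 Mb (1.81 to 2.50%) and 2.59% from 5 to 8 Mb (2.30 to 2.90%). From 8 Mb it lay at 1.37% (8 to 13 Mb, 1.21 to 1.55%), 1.42% (13 to 20 Mb, 1.28 to 1.57%) and 1.40% (20 to 32 Mb, 1.29 to 1.51%), 3 values whose intervals overlap. From 32 Mb to the end of the chromosome it was 0.782% (0.685 to 0.889%). The higher side thus exceeded the lower side up to 8 Mb, and the lower side exceeded the higher side from 8 to 50 Mb. The counting intervals did not overlap in any of the 7 classes that both sides have. The scatter between 200 kb windows, described below, was 8.30 times binomial variance. These intervals are therefore too narrow to judge the side differences by. In the class from 32 to 50 Mb the higher side reaches only to the end of the chromosome.

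**Figure D1:**
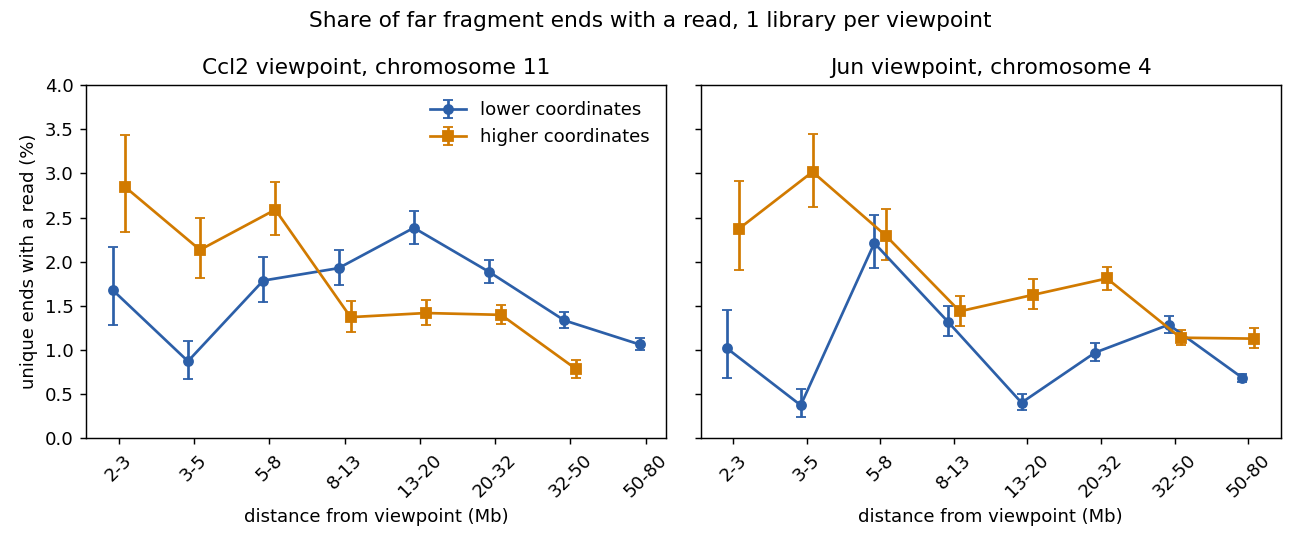
Percentage of unique fragment ends with a read (y axis) by distance class in Mb (x axis) for the Ccl2 viewpoint on chromosome 11 and the Jun viewpoint on chromosome 4; circles are the lower and squares the higher side, and bars are exact 95% binomial intervals within 1 library. The lower side of Ccl2 has its low point of 0.874% at 3 to 5 Mb and its high point of 2.38% at 13 to 20 Mb.

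Over the range present on both sides in full, from 2 to 32 Mb, 1.93% of lower-side ends (1.85 to 2.01%) and 1.61% of higher-side ends (1.54 to 1.69%) were covered, a ratio of 1.19 (1.12 to 1.27). The slope of log10 covered share on log10 distance over the classes of this range, both sides pooled, was -0.07 (-0.13 to -0.02), so the pooled share was nearly flat. The intervals of this slope and of the side ratio are normal approximations from the counting error. The pooled shares were 2.28, 1.48, 2.19, 1.65, 1.91 and 1.64% in the 6 classes from 2 to 32 Mb. They went up and down rather than falling steadily. Around Jun the slope was -0.20 and the ratio of lower to higher side 0.538. The Jun profile was uneven too, with 0.376% on its lower side from 3 to 5 Mb (0.238 to 0.563%) against 2.21% from 5 to 8 Mb (1.93 to 2.52%).

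A far end that was covered usually carried many reads. The median was 45 reads per covered end, the quartiles were 13 and 101, and the highest had 547. Only 378 of the 6016 covered ends, 6.28%, rested on 1 read, while 4757 (79.1%) had 10 reads or more and 1550 (25.8%) had 100 or more. Those 1550 ends held 63.2% of the far reads. No handful of ends dominated: 1.14% of far reads lay on the top 10 of the 6016 covered ends. In the zone from 5 to 20 kb the top 10 ends held 32.2% of the reads. That zone had only 150 covered ends, so these shares do not compare the concentration of reads.

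Reads per covered end fell from the viewpoint outward and then changed less. The median was 547.5 reads from 5 to 20 kb, 114 from 20 to 100 kb, 56 from 100 kb to 1 Mb, 47 from 1 to 2 Mb and 45 beyond 2 Mb. Within the far range, both sides pooled, the class medians lay between 43 and 50, also in the class beyond 50 Mb (45). On single sides they spread more widely, from 29 reads (lower side) to 62 (higher side), both at 3 to 5 Mb. On the higher side the medians from 3 Mb outward were 62, 46, 43, 40, 43 and 36. The far ends of Jun had a median of 28 reads.

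The 5 far ends with the most reads lay apart from each other. They were on fragments centred at positions 32118401 (547 reads), 43582641 (511 reads), 93585105 (511 reads), 48627841 (476 reads) and 72907057 (461 reads) of chromosome 11. Of these only the one at 93585105 was on the higher side. All 5 fragments hold a site of the second cutter. The number of covered ends on other fragments within 10 kb was 2 of 85, 0 of 84, 1 of 55, 6 of 73 and 8 of 86 in that order. The surroundings of these ends thus ranged from no covered neighbour, at 43582641, to 8, at 72907057.

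Far signal was patchy. In windows of 200 kb counted outward from 2 Mb, the covered share ran from 0 to 10.1%, with a median of 1.03% and a middle 50% from 0.454 to 2.14%. A total of 574 windows with at least 100 unique ends were compared with the share of their distance class, both sides pooled. A window was called raised at 2 or more times that share with its interval above it, and lowered at 0.5 times or less with its interval below it. There were 73 raised windows, 12.7% of those compared, and 148 lowered windows, 25.8%. The interval rule removed none of the 73 windows at 2 or more times their share. Of 205 windows at 0.5 times or less it kept 148, so the counts of raised and lowered windows are not like for like. The raised windows held 12.8% of the ends but 34.3% of the covered ends (2061) and 36.2% of the reads. The lowered windows held 25.8% of the ends and 5.89% of the covered ends (354).

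The scatter between windows was much larger than counting error. The squared deviations of covered ends from expectation summed to 8.30 times the binomial variance. For Jun on chromosome 4 that ratio was 6.90, and 100 of 724 windows (13.8%) were raised and 138 (19.1%) lowered. The patchiness of the far profile was thus present around both viewpoints.

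Raised windows lay mostly on the lower side. Against the pooled expectation there were 65 among 384 lower windows (16.9%) and 8 among 190 higher windows (4.21%), while lowered windows made up 25% and 27.4%. This split depends on the expectation. With the expectation taken from each side's own classes there were 48 raised windows on the lower side (12.5%) and 17 on the higher side (8.95%), and lowered windows were 104 (27.1%) and 32 (16.8%). By distance, the lower side had 0 raised and 4 lowered windows of 10 from 3 to 5 Mb, 7 raised and 11 lowered of 35 from 13 to 20 Mb, and 21 raised and 29 lowered of 90 from 32 to 50 Mb. The last of these classes shows raised and lowered windows side by side at the same distance: its windows ran from 0 to 6.91% with a median of 0.603%.

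**Figure D2:**
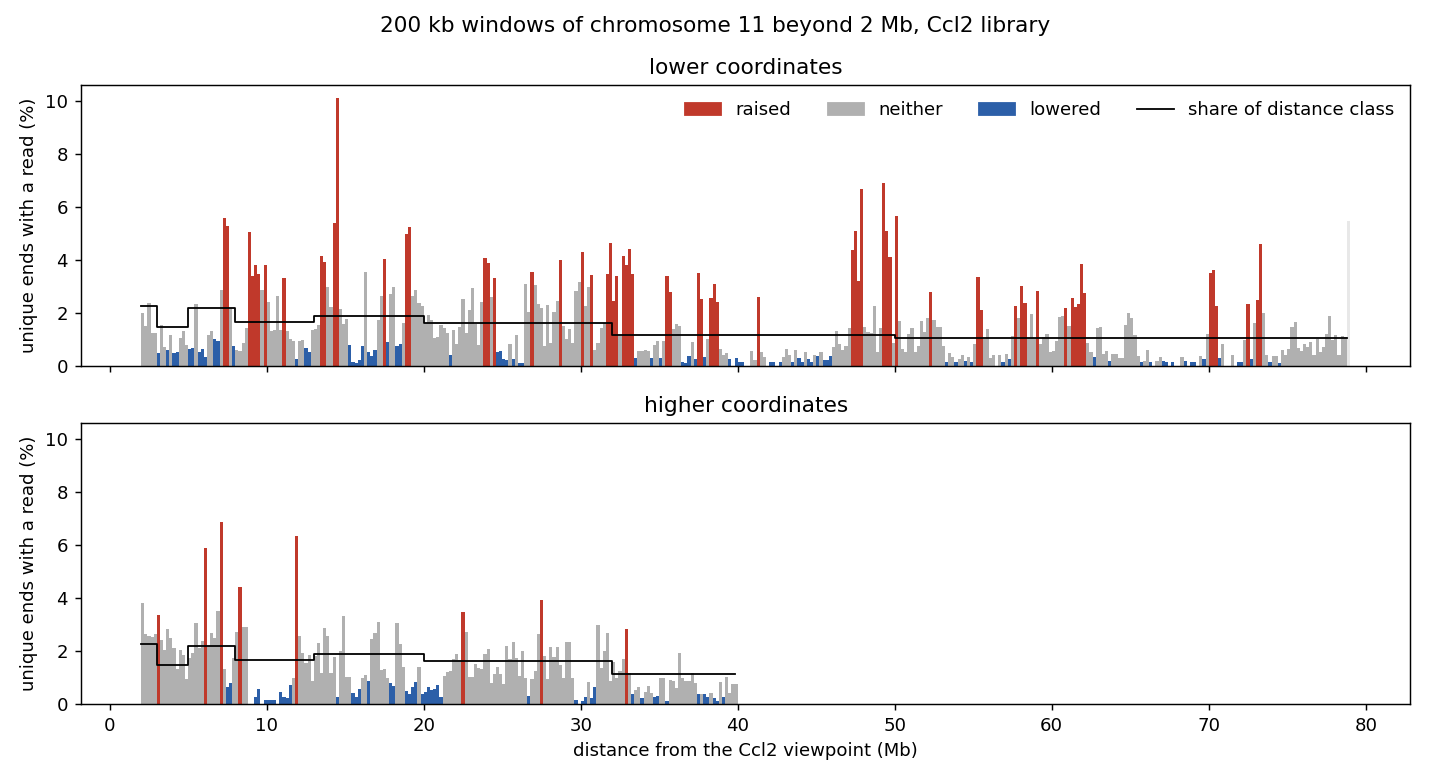
Percentage of unique fragment ends with a read (y axis) in each 200 kb window against distance from the Ccl2 viewpoint in Mb (x axis), lower side above and higher side below; red bars are raised, blue lowered and grey neither, the palest bar at the far left end of the chromosome is a window of 73 ends that was not compared, and the black line is the share of the distance class. Tall bars stand in groups, with the tallest, 10.1%, at 14.4 to 14.6 Mb on the lower side.

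The 10 raised windows with the highest ratio were 9 on the lower and 1 on the higher side. The window with the highest covered share of all lay at chr11:67248193-67448192, 14.4 Mb from the viewpoint, where 82 of 811 ends were covered, 10.1% (8.12 to 12.4%), 5.30 times the share of its class. Its neighbour at 67448193 to 67648192 had 44 of 816 ends covered (5.39%, 2.83-fold), and the window on its other side, at 67048193 to 67248192, 19 of 879 (2.16%, 1.13-fold). Signal there was thus concentrated in 400 kb. Farther in, from 68048193 to 68448192, 2 more windows were raised at 3.92 and 4.14%.

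The highest ratio, 5.96, was found at chr11:32448193-32648192, 49.2 Mb from the viewpoint, with 50 of 724 ends covered, 6.91% (5.17 to 9.0%). In second place, chr11:33848193-34048192 had 55 of 823 ends covered, 6.68% (5.07 to 8.61%), a ratio of 5.77. Next came chr11:31648193-31848192 with 42 of 743 ends covered, 5.65% (4.10 to 7.56%), a ratio of 5.32. This order holds for the expectation pooled over both sides. With each side's own expectation the window at 31648193 came first of the 10, at 5.32, before those at 32448193 (5.17) and 33848193 (5.0), and the higher-side window at 93648194 had 4.63. Of the 10 named windows, 6 lay between 31648193 and 34648192, a 3000 kb stretch singled out after its values were seen. As a whole it had 374 of 11276 ends covered, 3.32% (2.99 to 3.66%), while the 1 Mb below it had 1.14% (0.797 to 1.59%) and the 1 Mb above it 0.972% (0.689 to 1.33%).

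Within that stretch signal came in separate blocks. Of its 15 windows 8 were raised and 0 lowered. A first raised window, at 31648193 to 31848192, was followed by one at 0.861%. The next 3 windows, from 32048193 to 32648192, had 4.11, 5.11 and 6.91% of ends covered. The 6 windows from 32648193 to 33848192 lay between 0.526 and 2.27%. The last 4, from 33848193 to 34648192, had 6.68, 3.20, 5.12 and 4.39%. A block of 600 kb and one of 800 kb were thus parted by 1200 kb at ordinary levels.

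The other named windows were at chr11:8448193-8648192 (35 of 758 ends, 4.62%, ratio 4.34, 73200 kb from the viewpoint), chr11:48648193-48848192 (16 of 362 ends, 4.42%, ratio 3.81) and, on the higher side, chr11:93648194-93848193 (46 of 723 ends, 6.36%, ratio 3.85). The window at 48648193 had few usable ends, since 68.7% of the ends of its fragments were not unique, against 11.3 to 27.1% in the other 9. Median reads per covered end were 39 to 79.5 in these 10 windows, around and above the median of 45 for all far ends.

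Raised windows formed short runs. The longest was 5 windows, from 19648193 to 20648192 on the lower side, 61.2 to 62.2 Mb from the viewpoint. It had 92 of 3357 ends covered, 2.74% (2.21 to 3.35%), 2.58 times expectation, with 2.25 to 3.85% in its windows and 0.879 and 1.5% in the windows that touch it. The run from 72248193 to 73048192, 8.8 to 9.6 Mb away, had 125 of 3140 ends covered, 3.98% (3.32 to 4.72%), 2.41 times expectation. Another run, from 49448193 to 50248192, had 108 of 3059 ends covered, 3.53% (2.91 to 4.25%), 2.51 times expectation. Only 1 window, at 1.15%, parted it from a further run of 4 at 48448193 to 49248192 with 3.90%. In all, the 73 raised windows fell into 41 runs, and 50 of them had a raised neighbour. Runs of both calls rest on the pooled expectation and were not called again with each side's own. The lower side's own share was 1.93% from 8 to 13 Mb. In the run from 72248193, the windows at 3.48, 3.82 and 3.40% lay below 2 times that share. In the run from 49448193, the windows at 3.47 and 2.44% lay below 2 times the side's own 1.88% (20 to 32 Mb) and 1.34% (32 to 50 Mb).

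Lowered windows, which were more numerous (148 against 73), formed longer runs. In runs of 2 or more lay 111 of the 148 lowered and 50 of the 73 raised windows. For Jun the longest raised run had 11 windows and the longest lowered run 10. The longest lowered run of Ccl2 covered 14 windows on the higher side, chr11:90648194-93448193, 8.8 to 11.6 Mb from the viewpoint. In these 2800 kb only 23 of 9435 ends were covered, 0.244% (0.155 to 0.366%), 0.148 times expectation, with 1889 reads. Its windows held 0 to 6 covered ends each and 4 held none. The higher side's own share from 8 to 13 Mb was 1.37%, below the pooled 1.65%. The intervals of the windows at 91248194 (0.156 to 1.45%) and 93248194 (0.273 to 1.61%) reach above 1.37%. The run is thus unbroken only against the pooled expectation. The share of ends that were not unique was 17.7 to 39.9% in its windows, against a median of 25.8% in windows called neither, and its part in the result was not tested.

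On the viewpoint side the border of this run was steep. By construction, the windows beside a run of lowered windows are not lowered. The 2 windows next to it on the viewpoint side, from 90248194 to 90648193, had 22 of 754 and 21 of 721 ends covered (2.92 and 2.91%), and the first 2 windows inside it had 0 of 600 and 0 of 678. At the far border the last window inside had 0.742% (0.273 to 1.61%) and the next 0.995% (0.431 to 1.95%), with overlapping intervals. The one after that had 6.36% and was the only higher-side window among the 10 named. From 0 to 2.9% in 1 step, and from 0.742 to 6.36% over 400 kb, these were changes well beyond the counting intervals of the windows. The end with 511 reads at 93585105 lies in the window between.

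The second-longest lowered run, 7 windows from 101648194 to 103048193 on the higher side, had 28 of 5444 ends covered, 0.514% (0.342 to 0.742%). Equally long, 7 windows from 41048193 to 42448192 on the lower side, had 6 of 4646, 0.129% (0.0474 to 0.281%), and 3 of its windows were empty. The run from 101648194 is also unbroken only against the pooled expectation. Upper bounds at 102048194 (1.48%), 102448194 (1.44%) and 102648194 (1.58%) lie above the higher side's own 1.40% from 20 to 32 Mb. Across the far range 20 windows had no covered end, on 521 to 760 ends each. Taken as 3 counts, the limit that a count of 0 allows was a share of 0.395 to 0.576% in single windows. For the window with the lowest limit, with 760 ends at 25248193 to 25448192, the upper bound of the exact interval was 0.484%. So these windows had little or no signal detectable at this depth, which does not show that they had none.

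Neighbouring windows were alike over distances well beyond 1 window. Across windows of the same side and library, the ratio to expectation had a correlation of r = 0.55 with that of the next window (572 pairs), 0.33 at 400 kb, 0.20 at 600 kb and 0.06 at 1000 kb. For Jun the values were 0.55, 0.27, 0.19 and 0.11. Raised and lowered windows touched in 7 of 572 neighbouring pairs, raised and raised in 32, and lowered and lowered in 79. These correlations share 1 library and are descriptions only.

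The same scale showed at the level of single ends. Around a covered far end of Ccl2, 2.82% of unique ends on other fragments within 2 kb were covered, 2.88% at 10 to 20 kb, 2.74% at 20 to 50 kb, 2.21% at 100 to 200 kb and 1.69% at 500 to 1000 kb. Around ends with no read the share was 1.42 to 1.49% at every separation. The excess was 1.92 times the far share within 2 kb and 1.07 times at 1000 to 2000 kb. Contacts were thus not more clustered at 2 kb than at 20 kb, and the excess faded only beyond 50 kb. Around Jun the shares were 2.29% within 2 kb and 1.37% at 500 to 1000 kb.

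**Figure D3:**
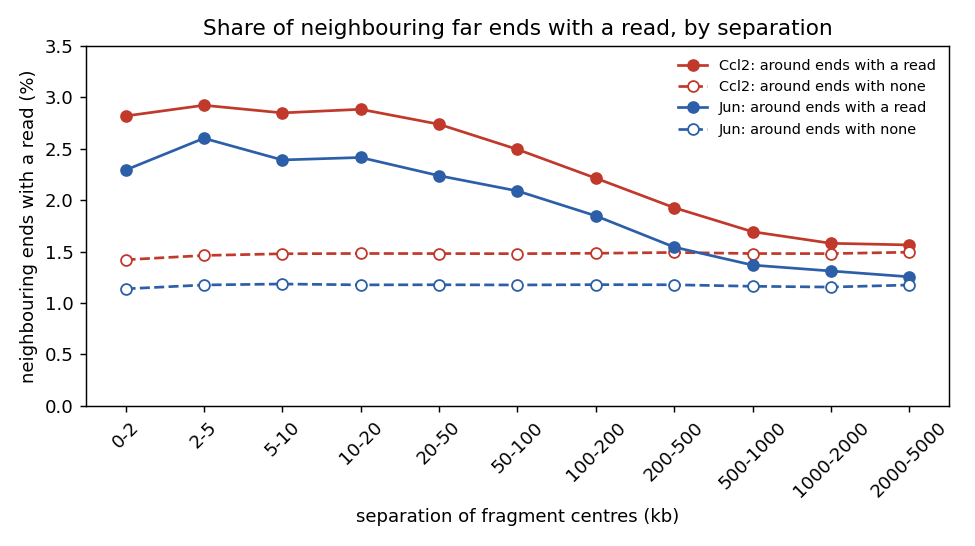
Percentage of neighbouring unique far ends, on other fragments, that had a read (y axis) by separation of fragment centres in kb (x axis); filled points are neighbours of ends with a read, open points neighbours of ends with none, for the Ccl2 and Jun libraries. For Ccl2 the filled points lie at 2.74 to 2.92% up to 50 kb and approach the open points, at about 1.48%, beyond 1000 kb.

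Ends with few reads lay in much the same places as ends with many. Within 50 kb of ends with 100 or more reads 2.81% of neighbours were covered, with 10 to 99 reads 2.88%, and with 2 to 9 reads 2.73%. Around the 378 ends with a single read it was 2.15%, between these and the 1.48% around ends with none. Across the 574 windows, the ratio computed from ends with 1 to 9 reads correlated at r = 0.60 with that from ends with 10 or more. The ratio computed from 3′ ends alone correlated at r = 0.79 with that from 5′ ends alone. Both ends of a fragment share their position and the library, so this is a description of 1 experiment.

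Fragment structure, which played no part in choosing the regions, went with the covered share. Fragments that hold a site of the second cutter had 2.29% of their far ends covered (4213 of 183972, 2.22 to 2.36%), and those without one 0.801% (1803 of 225127, 0.764 to 0.839%), a ratio of 2.86. Their covered ends also differed in depth, with medians of 64 and 14 reads. Near the viewpoint, from 5 to 100 kb, the shares were 95.1 and 75.6%. Shares so near to 100% cannot have a large ratio, so the ratios of the near and far ranges are not comparable. For Jun the far shares were 1.76 and 0.663%.

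Length mattered in both classes. With a site, the share was 1.17% for fragments up to 100 bp (0.903 to 1.48%), 2.56% for those over 400 and up to 800 bp (2.44 to 2.68%) and 2.04% above 800 bp (1.92 to 2.16%). Without a site, it was 0.561% up to 100 bp (0.507 to 0.618%), 1.06% over 200 and up to 400 bp (0.981 to 1.15%) and 0.158% above 800 bp (12 of 7591 ends, 0.0817 to 0.276%). The 3′ and 5′ ends did not differ beyond counting error, at 1.45% (1.4 to 1.5%) and 1.49% (1.44 to 1.55%).

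**Figure D4:**
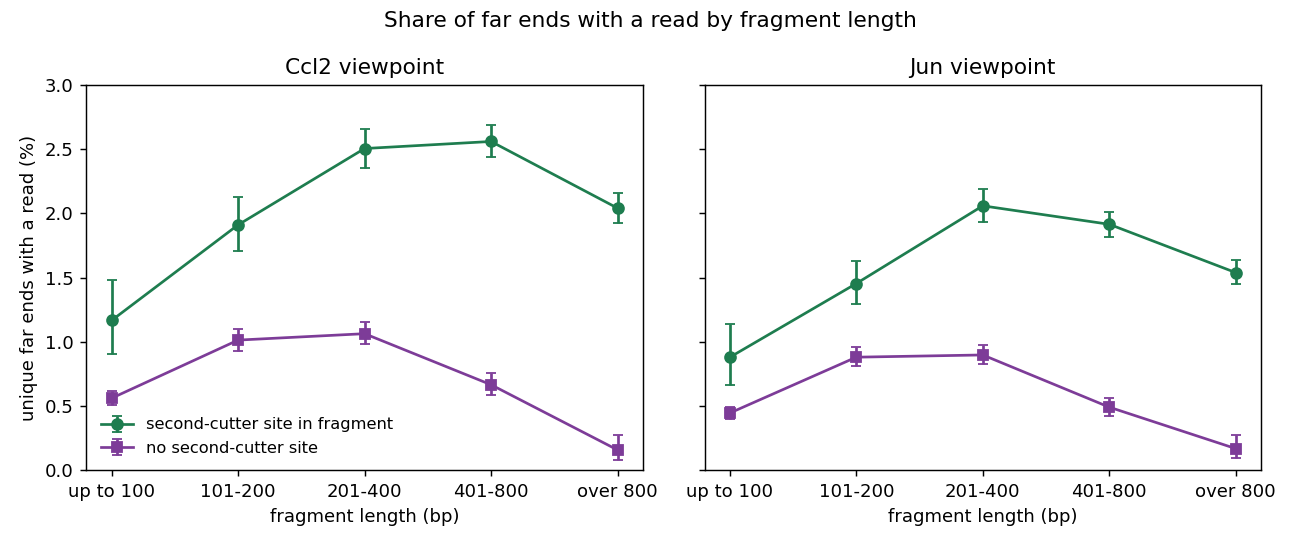
Percentage of unique far ends with a read (y axis) by fragment length class in bp (x axis) for fragments with a site of the second cutter (circles) and without one (squares), in the Ccl2 and Jun libraries; bars are exact 95% binomial intervals. Above 800 bp the Ccl2 shares are 2.04% with a site and 0.158% without.

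Fragment structure differed little between raised and lowered windows. The median share of ends on fragments with a site was 44.9% in raised, 45% in other and 45.4% in lowered windows, and median fragment lengths were 300, 302 and 305 bp. With the expectation set by distance, fragment length and presence of a site together, 70 windows were raised, all among the 73, and 148 lowered, of which 142 were the same. The share of ends that were not unique was slightly lower in raised windows (median 24.2%) than in lowered ones (26.3%), and across windows it correlated with the ratio at r = -0.14 (n = 574). For Jun this correlation was -0.22 (n = 724).

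The ends of 1 fragment tended to be covered together. Among 172560 far fragments with both ends unique, 108 had reads at both ends and 4728 at one. Where the 3′ end was covered, the 5′ end was covered in 4.42% (108 of 2445, 3.64 to 5.31%), and where it was not, in 1.41% (1.35 to 1.46%). For Jun the shares were 3.04% (2.38 to 3.82%) and 1.08%. Most covered far fragments were thus seen at 1 end only. For scale, 2.82% of ends on other fragments within 2 kb of a covered far end of Ccl2 were covered. How much of the pairing goes with shared location or fragment structure was not tested.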

How the data were processed

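4C-seq libraries of 2 viewpoints, 1 each, were used. The deposited estimated counts of reads per fragment end are not scaled to depth; this unit was read from the values, which pile up just under whole numbers. The build is mm9, as the submitters' processing notes list it; the aligner was not given in the sources used here. Header names in the deposited files are shifted by 1 column, so columns were taken by number. Each end has a multiplicity and each fragment a length and distances to the second cutter, per the file headers; a fragment was taken to hold a site where such a distance was below its length. Counts were rounded to whole reads, and an end with 1 read or more was called covered. Python 3.11.15, pandas 2.3.3 and scipy 1.17.1 were used, and the code was tested on simulated data. The expectation of a window is the covered share of its distance class, with edges at 2, 3, 5, 8, 13, 20, 32, 50 and 80 Mb, and each window enters its own class. Named were the 10 raised windows with the highest ratio, the 3 longest runs of each call and the 5 ends with the most reads. The regions and rules were chosen with earlier results of these data known. The annotation at hand is of GRCm38.p6, so no gene or sequence was assigned to a window. Intervals and limits from a count of 0 (3 counts) cover counting error only.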

Additional observations from a re-analysis of the deposited data

Results flagged for a closer look

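Ends whose sequence occurs more than 1 time in the genome, not used above, also carried far reads. Of 59588 such ends more than 2 Mb from the Ccl2 viewpoint, 2059 were covered, 3.46% (3.31 to 3.61%), with 50705 reads, a share above that of unique ends and above the limit that a count of 0 allows. It was 2.05% for ends with 2 copies, 2.63% for 3 to 5 copies and 5.0% for 6 to 50 copies. A read on such an end may come from any of its copies, so these reads cannot be placed on chromosome 11.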

How the results depend on the processing

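The share of far ends with a read was 1.47% and became 1.38% with at least 2 reads required, 1.16% with at least 10, 1.72% with ends of any multiplicity and 2.29% on fragments with a second-cutter site. The far share of reads, 45.6%, was 46.2% on such fragments, 42.6% beyond 5 Mb and 70.3% with each end capped at 100 reads. Raised windows numbered 135 at 100 kb, 25 at 500 kb and 20 at a ratio of at least 3, and lowered windows 74 at 500 kb; window number and size differ there by construction. The scatter of windows, 8.30 times binomial variance, was 13.7 at 500 kb, 7.81 with each side's own expectation, 8.33 with fragment length and 8.35 with length and site. The ratio of shares with and without a site, 2.86, was 4.36 for ends with at least 10 reads. The other 21 values of these results, those of the slope and the side ratio included, stayed within their interval or within 1.5 times the count. Of the 73 raised windows, 62 were still raised with at least 10 reads, 55 with each side's own expectation and 60 with ends of any multiplicity. Of the 148 lowered windows, 113, 120 and 134 were still lowered in these settings, and 103 on fragments with a second-cutter site. All 10 named windows remained raised under each of 6 alternatives, which were chosen after seeing the data. These windows were picked for high ratios in the same reads, so this gives no independent support. Other window sizes or starts and ends of any multiplicity were not among the 6. Also chosen after seeing the data was the expectation by fragment length and site. So was the setting of at least 10 reads, for lowered windows and for the ratio of shares. No paired analysis was possible because each viewpoint had 1 library. At about 726 ends per window, a window of average share holds few covered ends, which limits calls of single windows.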

Other observations

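Near both tips of the mapped chromosome the far signal of Ccl2 was below its average over all far distances, 1.47%. The lowest 5 Mb, chr11:3002817-8002817, had 146 of 17549 ends covered, 0.832% (0.703 to 0.978%). The highest 5 Mb, chr11:116843265-121843265, had 131 of 18678, 0.701% (0.587 to 0.832%). The tips are also the farthest ends of each side, and the interval of the higher tip overlaps that of its side from 32 Mb on, 0.782% (0.685 to 0.889%). The lower tip lies below its side from 50 to 80 Mb, 1.06% (0.998 to 1.13%). The intervals of the 2 tips overlap although the first lies much farther from the viewpoint.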
